A study of Mus musculus with 8 samples.

Results

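Transforming growth factor beta (TGF-beta) is a signal that cells secrete and store in the matrix around them. This account follows 10 genes of its pathway in the mouse lung under low oxygen. They are the ligand genes Tgfb1, Tgfb2 and Tgfb3, the latency gene Ltbp1, the receptor genes Tgfbr1, Tgfbr2 and Tgfbr3, and the signal-transducing genes Smad2, Smad3 and Smad7. They were chosen by name, with earlier results of these data known. Each was measured by 1 probe set, so that 10 of the 25428 probe sets on the array are concerned.

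The study exposed Nfat5fl/fl mice to normoxia or hypoxia and measured gene expression in 1 lung lobe of each of 8 mice on the Mouse Gene 2.0 ST array of Affymetrix. The normoxic group consists of mice F to I (n = 4). The hypoxic group consists of mice A to D (n = 4), which breathed 10% oxygen for 7 days. The comparison addresses how chronic hypoxia alters gene expression in lungs in which the transcription factor gene Nfat5 is intact. Both groups share the genotype, with loxP sites around an exon of Nfat5 that is still in place. According to the methods, Nfat5fl/fl animals were adult males from a cross with SM-MHC-CreERT2, whose Cre is driven by the smooth muscle myosin heavy chain promoter, and received the solvent miglyol in place of tamoxifen. The letters name separate animals and do not pair the groups.

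TGF-beta is made as a precursor whose propeptide stays bound to the mature dimer and keeps it latent. Latent TGF-beta binding proteins tether this complex to fibrillin microfibrils, and integrins, thrombospondin and proteases release or activate it. The free ligand assembles type II and type I receptor kinases, which phosphorylate SMAD2 and SMAD3, whereas SMAD7 is induced by the pathway and inhibits it. In the lung the pathway is known for stimulating matrix synthesis and smooth muscle and myofibroblast gene expression.

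All values below are log2 intensities, and a difference is hypoxia minus normoxia on the log2 scale. The alveolar surfactant gene Sftpc read 12.63 to 13.58 and the airway gene Scgb1a1 13.03 to 13.37 over the 8 arrays, near the top of the scale, as lung tissue has them. Array medians lay between 4.17 and 4.20, and correlations between arrays over all probe sets between 0.942 and 0.982. Markers of other tissues differed between arrays, some by mouse and some by condition. The mean level of 6 skeletal muscle genes was 7.78 in mouse F and 7.40 in mouse G, against 3.70 to 5.01 in the other 6 mice, so that counts, and the genes whose call or size changed most, are also given without F and G. The 6 adipocyte markers averaged 5.37 to 7.14 in normoxia and 4.87 to 5.40 in hypoxia, and the 6 cardiac muscle markers 7.46 to 8.01 and 6.83 to 7.24. The cardiac levels did not overlap between the groups. All 6 adipocyte and 4 of the 6 cardiac markers were lower at an unadjusted limma p under 0.05, where 3.15% of all probe sets were. This tissue content ran with the condition, so it cannot be told apart from hypoxia, with or without F and G. Nfat5 itself, with the floxed exon, averaged 6.69 ± 0.47 in normoxia and 6.43 ± 0.36 in hypoxia (SD, n = 4 each, limma adjusted p = 0.828).

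The 3 ligand genes and Ltbp1 had higher means in hypoxia, whereas the receptors and the Smads showed no common direction. Tgfbr1 and Tgfbr3 had lower means and Tgfbr2 had a higher one. After Benjamini-Hochberg adjustment over all probe sets, limma called 0 of the 10 genes at an adjusted p under 0.05, and it called 0 (0%) of the 25428 probe sets. Without adjustment, 4 genes were higher at p under 0.05 (Tgfb1, Tgfb2, Tgfb3 and Ltbp1), where 5.34% of all probe sets were, and 1 was lower (Tgfbr3), where 3.15% were. The test named in the methods, a one-way analysis of variance, also called 0 genes after adjustment and had 3 higher and 0 lower before it. All hypoxic mice lay above all normoxic mice for Tgfb1 and Tgfb3, so 2 of the 10 genes were apart upwards and 0 downwards, against 3.01% and 1.61% of all probe sets. The median difference of the 10 genes was 0.32, with 7 means higher and 3 lower in hypoxia, and the median over all probe sets was -0.005. Since whole lobes were measured, fewer cells of a type and less RNA per cell cannot be told apart in any of these values.

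**Figure D1:**
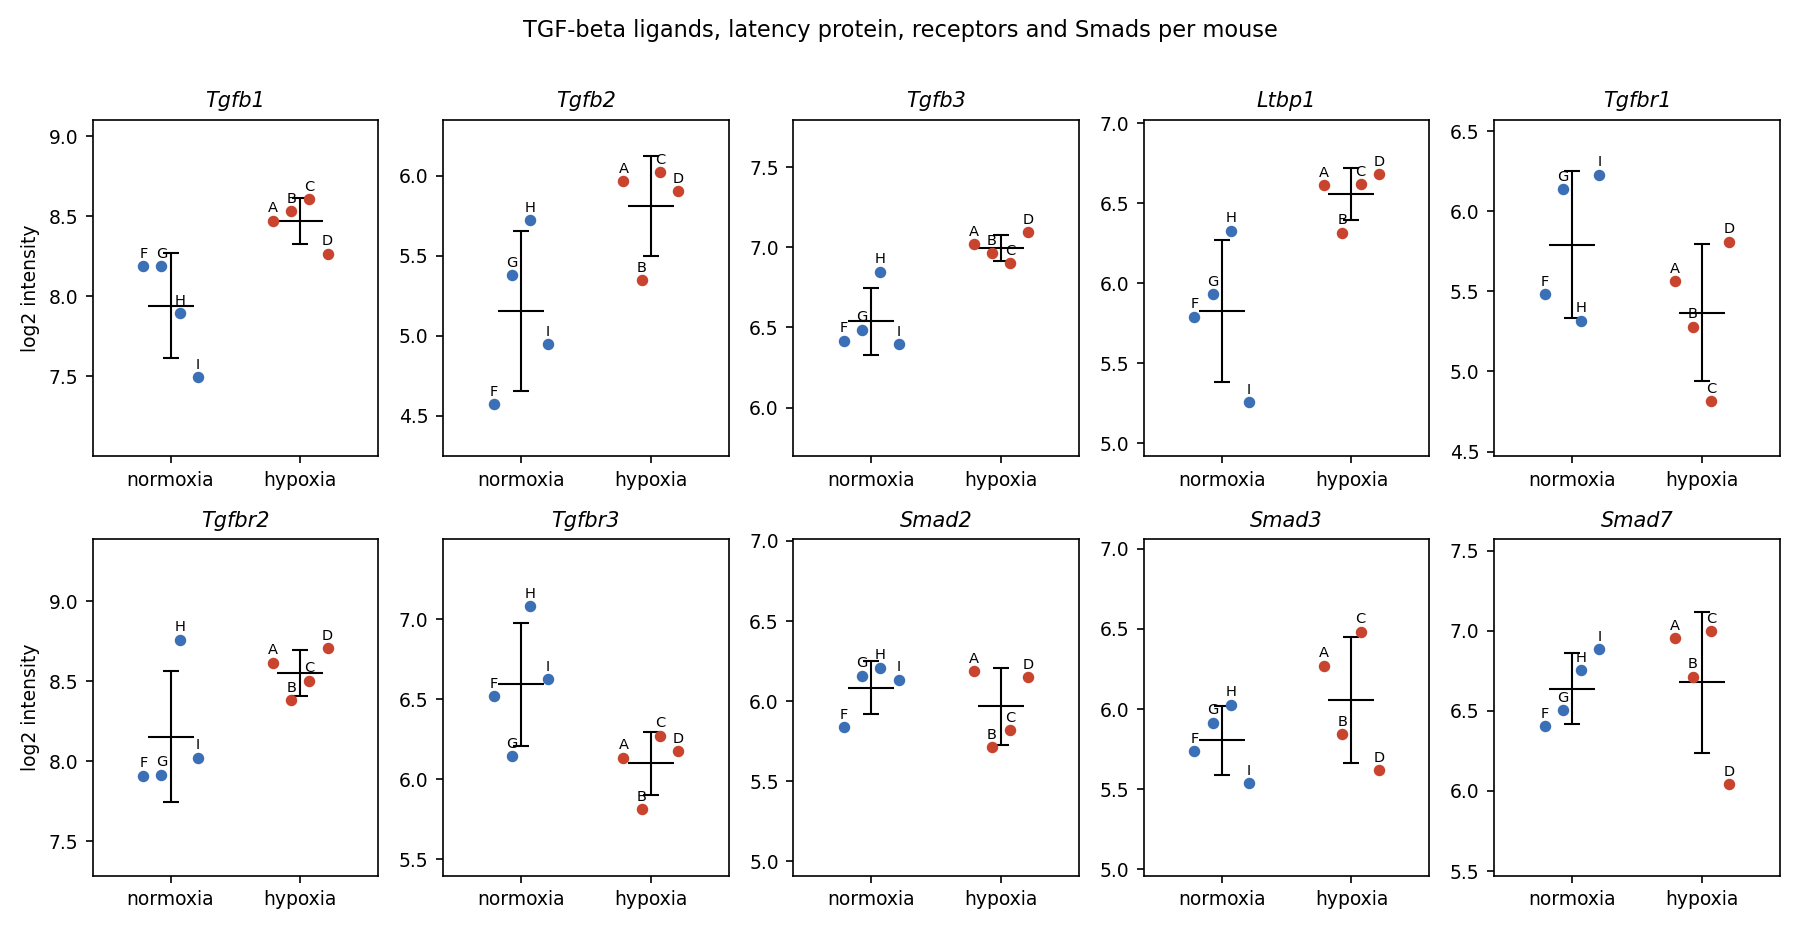
Log2 intensity of the 10 genes in each of the 8 mice, with the letter of the mouse beside its point, normoxia in blue and hypoxia in red. Horizontal bars are group means and error bars are SD (n = 4), and every panel spans the same number of log2 units. All 4 hypoxic mice lie above all 4 normoxic mice for Tgfb1 and Tgfb3, whereas mouse H stands above the other normoxic mice for Tgfbr2.

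The promoters of Tgfb1, Tgfb2 and Ltbp1 are shown, because these genes had higher means in hypoxia and because both hypoxia-inducible factors (HIF) and SMADs bind short motifs. RefSeq sequences of the mouse assembly GRCm38.p6 were used, from 250 bases before to 50 bases after the annotated start. In all, 8 such windows cover 6 of the 10 genes (Tgfb1, Tgfb2, Ltbp1, Tgfbr1, Tgfbr2 and Smad3). Tgfb3 and Tgfbr3 had no window in the source, and Smad2 and Smad7 were not examined. Capitals mark the HIF core (ACGTG or GCGTG, read on the other strand as CACGT or CACGC) and the Smad box (CAGAC, read on the other strand as GTCTG). The first line is Tgfb1 at chr7:25686752-25687051 (plus strand), the second Tgfb2 at chr1:186705940-186706239 (minus strand), the third Ltbp1 at chr17:75005279-75005578 (plus strand), and the last a second start of Ltbp1 further downstream, at chr17:75178531-75178830 (plus strand).
Tgfb1: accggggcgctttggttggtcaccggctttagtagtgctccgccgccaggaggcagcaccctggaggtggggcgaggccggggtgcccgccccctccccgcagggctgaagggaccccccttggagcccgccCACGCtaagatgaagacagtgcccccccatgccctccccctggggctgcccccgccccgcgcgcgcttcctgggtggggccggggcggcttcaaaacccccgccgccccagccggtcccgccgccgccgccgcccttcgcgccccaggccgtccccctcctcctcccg
Tgfb2: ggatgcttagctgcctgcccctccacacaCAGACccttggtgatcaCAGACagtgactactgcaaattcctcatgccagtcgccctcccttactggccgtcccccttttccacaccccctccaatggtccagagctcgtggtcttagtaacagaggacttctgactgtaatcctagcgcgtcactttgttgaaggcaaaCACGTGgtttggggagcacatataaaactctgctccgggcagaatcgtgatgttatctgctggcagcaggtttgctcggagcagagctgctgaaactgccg
Ltbp1, first start: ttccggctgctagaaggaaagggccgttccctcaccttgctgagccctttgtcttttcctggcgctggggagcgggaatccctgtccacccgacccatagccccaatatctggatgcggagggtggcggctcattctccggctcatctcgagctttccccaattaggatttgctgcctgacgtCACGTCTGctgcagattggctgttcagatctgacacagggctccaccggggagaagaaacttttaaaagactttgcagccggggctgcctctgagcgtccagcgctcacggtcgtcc
Ltbp1, second start: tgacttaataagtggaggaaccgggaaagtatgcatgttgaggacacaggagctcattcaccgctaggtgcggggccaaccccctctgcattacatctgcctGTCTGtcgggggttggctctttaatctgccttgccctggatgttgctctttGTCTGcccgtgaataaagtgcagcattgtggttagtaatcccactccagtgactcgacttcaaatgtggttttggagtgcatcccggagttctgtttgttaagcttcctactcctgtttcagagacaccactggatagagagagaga
The Tgfb1 window holds 1 HIF core, 118 bases before the start, and no Smad box letters. In the Tgfb2 window a CACGTG stands 51 bases before the start. This palindrome contains the core on both strands and is also an E-box, and 7.15% of the 32851 mouse promoter windows hold one. Tgfb2 also has 2 Smad boxes, 221 and 204 bases before the start. At the first Ltbp1 start a HIF core 67 bases upstream runs into a Smad box 64 bases upstream, with which it overlaps. The window of the second start has 2 Smad boxes, 148 and 97 bases upstream. A HIF core is present in 6 of the 8 windows of these genes and in 43.8% of all windows, and a Smad box in 5 of the 8 and in 49.6% of all. Tgfbr1, not shown and with a lower mean in hypoxia (difference -0.43), has HIF cores 214 and 186 bases before 1 of its starts. Smad3 (0.25, limma adjusted p = 0.794) has cores 205 and 194 bases before its start. Tgfbr2 (0.40, limma adjusted p = 0.642) has 1 core, 138 bases before. HIF cores were thus not limited to genes with higher means, and a link between cores and differences was not tested. These matches are descriptions of letters, and binding was not measured.

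Tgfb1, the ligand most widely made by lung, blood and immune cells, had log2 intensities of 8.19, 8.19, 7.90 and 7.50 in the normoxic mice F, G, H and I, and of 8.47, 8.53, 8.61 and 8.27 in the hypoxic mice A, B, C and D. The groups did not overlap, the lowest hypoxic mouse being D and the lowest normoxic mouse I. The means were 7.94 ± 0.33 and 8.47 ± 0.15 (SD, n = 4 each), a difference of 0.53 (SE 0.18, 95% interval 0.13 to 0.93), which is 1.44-fold. The two-sided exact permutation test over the 70 assignments of mice gave p = 0.0286, the smallest it can give, and the limma adjusted p was 0.414. The Tgfb1 difference was 0.38 without mouse I and 0.77 without F and G.

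Tgfb2, whose precursor lacks the integrin-binding motif of the other ligands, read 4.57, 5.38, 5.72 and 4.95 in normoxia (F, G, H, I) and 5.97, 5.35, 6.02 and 5.91 in hypoxia (A, B, C, D). Hypoxic mice A, C and D lay above all normoxic mice, whereas B fell just under G and below H, so the groups overlapped. The difference was 0.66 (SE 0.25, 95% interval 0.11 to 1.21, 1.58-fold), with an adjusted p of 0.477 by limma and an exact permutation p of 0.0857. It ranged from 0.46 without F to 0.84 without H, and the unadjusted p of Tgfb2 was no longer under 0.05 without F, I, A, C or D, without F and G together, or by the test named in the methods.

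Tgfb3, the ligand best known from palate and lung development and from wound repair, read 6.42, 6.49, 6.85 and 6.40 in normoxia (F, G, H, I) and 7.02, 6.97, 6.90 and 7.10 in hypoxia (A, B, C, D). The 4 hypoxic mice stood close together and all above the normoxic mice, with H the nearest to them. Its means were 6.54 ± 0.21 and 7.00 ± 0.083 (SD, n = 4 each), and the difference of 0.46 (SE 0.15, 95% interval 0.13 to 0.79) corresponds to 1.37-fold. The exact permutation p was 0.0286, again the smallest possible, and the limma adjusted p was 0.401. Without F and G the Tgfb3 difference was 0.37 and its unadjusted p was no longer under 0.05.

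Ltbp1 codes for the protein that binds latent TGF-beta and anchors it in the matrix. Among the 10 genes it had the largest difference and the smallest adjusted p. Normoxic mice F, G, H and I read 5.79, 5.93, 6.33 and 5.26 and hypoxic mice A, B, C and D read 6.61, 6.32, 6.62 and 6.68. Only the hypoxic mouse B and the normoxic mouse H kept the groups from being apart, with B barely under H. The difference was 0.73 (SE 0.21, 95% interval 0.26 to 1.20, 1.66-fold), and it lay above 98.6% of the differences of all probe sets. Its limma adjusted p of 0.321 missed the threshold, the exact permutation p was 0.0571, and leaving out 1 mouse gave 0.54 (without I) to 0.90 (without H).

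Tgfbr1 codes for the type I receptor kinase that phosphorylates SMAD2 and SMAD3. It read 5.48, 6.14, 5.32 and 6.23 in normoxia and 5.56, 5.28, 4.81 and 5.81 in hypoxia, in the same order of mice as above. Each group spanned more than the distance between the means, and the groups overlapped. The difference of -0.43 (SE 0.26, 95% interval -1.003 to 0.15, adjusted p = 0.710 by limma) shrank to -0.24 without the hypoxic mouse C, the lowest of all 8.

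Tgfbr2, the ligand-binding type II receptor, read 7.91, 7.92, 8.76 and 8.02 in normoxia (F, G, H, I) and 8.62, 8.38, 8.50 and 8.71 in hypoxia (A, B, C, D). All hypoxic mice lay above F, G and I, and mouse H lay above every hypoxic mouse. The difference was 0.40 (SE 0.20, 95% interval -0.047 to 0.84, limma adjusted p = 0.642). It rested on the choice of normoxic mice, as it was 0.60 without H and 0.16 without F and G.

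Tgfbr3 codes for betaglycan, a co-receptor without kinase activity that presents ligand, TGF-beta2 above all, to the type II receptor. It read 6.52, 6.14, 7.08 and 6.63 in normoxia (F, G, H, I) and 6.14, 5.82, 6.27 and 6.17 in hypoxia (A, B, C, D). All hypoxic mice lay below F, H and I, and the normoxic mouse G fell among them. The difference was -0.49 (SE 0.20, 95% interval -0.94 to -0.046), 1.41-fold higher in normoxia, with a limma adjusted p of 0.528 and an exact permutation p of 0.0857. It was -0.33 without H and -0.75 without F and G. The unadjusted p of Tgfbr3 was no longer under 0.05 without H, I, A or B, or by the test named in the methods. Without H, Tgfbr1 (lower) and Tgfbr2 (higher) were the receptor genes at that p, and with array weights all 3 were.

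Smad2 and Smad3 code for the receptor-activated SMADs. Smad2 read 5.84, 6.16, 6.21 and 6.13 in normoxia (F, G, H, I) and 6.19, 5.71, 5.82 and 6.15 in hypoxia (A, B, C, D). Both groups covered nearly the same range, and the difference was -0.12 (95% interval -0.48 to 0.25, limma adjusted p = 0.888), with -0.032 without B and -0.20 without F. Smad3 read 5.74, 5.92, 6.03 and 5.54 in normoxia and 6.27, 5.84, 6.48 and 5.62 in hypoxia. Mice A and C were the highest of the 8, whereas B and D lay within the normoxic range. The Smad3 difference was 0.25 (95% interval -0.21 to 0.70, limma adjusted p = 0.794), and it was 0.11 without C and 0.39 without D.

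Smad7 codes for the inhibitory SMAD that recruits ubiquitin ligases to the type I receptor. It read 6.41, 6.50, 6.75 and 6.89 in normoxia (F, G, H, I) and 6.96, 6.71, 7.00 and 6.04 in hypoxia (A, B, C, D). Mouse D was the lowest of all 8 and mice A and C were the highest, so hypoxia spanned the whole normoxic range. The difference was 0.040 (SE 0.22, 95% interval -0.44 to 0.53, limma adjusted p = 0.979), and its sign turned with the mice used, from -0.067 without C to 0.25 without D. For these 3 Smad genes the intervals do not show equality. They still include changes of about the size measured for Tgfb3 in at least 1 direction.

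**Figure D2:**
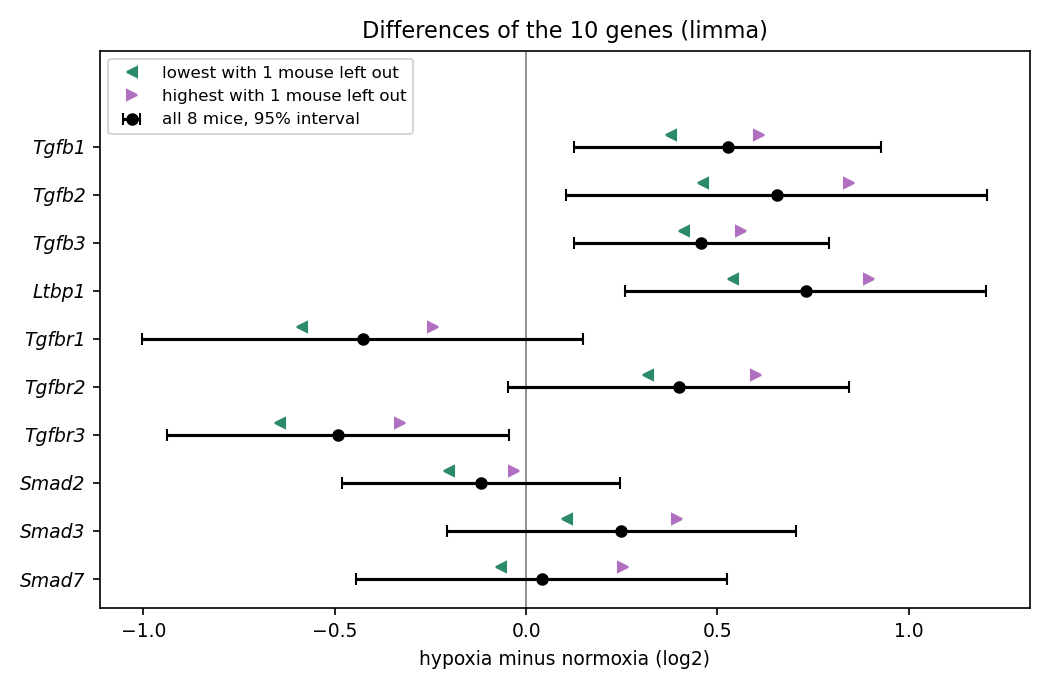
Difference between hypoxia and normoxia (log2, x axis) for each of the 10 genes (y axis), with points and bars for the limma estimate and its 95% interval over all 8 mice. Triangles give the lowest and highest difference when 1 mouse is left out. The intervals of Tgfb1, Tgfb2, Tgfb3, Ltbp1 and Tgfbr3 do not reach 0, the other 5 do, and only for Smad7 do the triangles fall on both sides of 0.

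The mice of a group differed among themselves in a way that ran through several genes. Normoxic mouse H had the highest value of its group for 7 of the 10 genes (Tgfb2, Tgfb3, Ltbp1, Tgfbr2, Tgfbr3, Smad2 and Smad3). Mouse I had the lowest for 4 of the 10 (Tgfb1, Tgfb3, Ltbp1 and Smad3), and so had mouse F (Tgfb2, Tgfbr2, Smad2 and Smad7). Among hypoxic mice, B was lowest for 5 genes and C highest for 5. Without H, 5 genes were higher at an unadjusted p under 0.05 (the 4 named above and Tgfbr2), where 6.11% of all probe sets were. The genes that did not overlap upwards then numbered 4 (Tgfb1, Tgfb3, Ltbp1 and Tgfbr2), against 6.05%. Without F and G, only Tgfb1 and Ltbp1 of the 10 were higher at that p, against 7.32% of all probe sets. In that setting Tgfb1 and Tgfb3 were apart upwards and Tgfbr3 downwards, against 10.9% and 11.1%. The smallest adjusted p of any of the 10 genes with 1 mouse left out was 0.138, for Ltbp1 without H.

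The genes whose values over the 8 mice followed each ligand most closely are given as a description. For Tgfb1 they were Mfge8 (Pearson r = 0.993, Spearman rho = 0.905), Cdca7 (r = 0.993, rho = 0.976) and Grn (r = 0.992, rho = 0.952). Mfge8 codes for a secreted milk fat globule protein that bridges dying cells to phagocytes, and Grn for progranulin. For Tgfb2 they were Olfr750 (r = 0.980, rho = 0.929), Unc13c (r = 0.979, rho = 1) and Wee1 (r = 0.971, rho = 0.881). Wee1 codes for a kinase that holds back mitotic entry, Unc13c for a synaptic vesicle protein and Olfr750 for an olfactory receptor. For Tgfb3 they were Eid1 (r = 0.994, rho = 0.976), Adamts1 (r = 0.988, rho = 0.905) and Ogfod3 (r = 0.984, rho = 0.952), with Adamts1 coding for a secreted protease of the matrix. These are the highest of the genes with a symbol, leaving out predicted genes, clone names and small RNAs, over 8 mice that share their 2 conditions. Olfr750 and Unc13c themselves differed by only 0.14 and 0.16 between the conditions (limma adjusted p = 0.837 and 0.809).

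The other genes of the pathway were described from 3 lists with 47 genes in all. The lists were written with earlier results of these data known, so their counts beside the shares of all probe sets are a description only. limma called 0 of the 47 after adjustment. At an unadjusted p under 0.05, 12 were higher and 1 was lower in hypoxia (5.34% and 3.15% of all probe sets), and 8 were apart upwards and 1 downwards (3.01% and 1.61%). Without F and G, 12 were higher and 6 lower, and of all probe sets 7.32% were then higher and 5.76% lower. Their median difference was 0.090, with 0.028 without mouse C and 0.15 without F and G.

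Genes of latent storage and activation had mostly higher means in hypoxia. Of 18, 16 had a higher mean, 8 were higher at an unadjusted p under 0.05, none was lower, and 5 were apart upwards, against 5.34%, 3.15% and 3.01% of all probe sets. The median was 0.33. Ltbp2, a relative of Ltbp1 in the microfibrils that does not bind latent TGF-beta itself, read 5.76 to 6.54 in normoxia and 6.91 to 8.01 in hypoxia. The groups were apart and the difference of 1.497 (SE 0.25, 2.82-fold, limma adjusted p = 0.0751) was the largest of the list. Mmp2, a gelatinase, differed by 1.27 (SE 0.24, adjusted p = 0.0937), and Mmp14, the membrane protease that activates it, by 0.97 (SE 0.20, adjusted p = 0.134). Lrrc32, which codes for the cell-surface anchor of latent TGF-beta called GARP, read 6.84 to 7.27 in normoxia and 7.50 to 7.94 in hypoxia, a difference of 0.77 (SE 0.16, adjusted p = 0.145). All 4 were apart, with every hypoxic mouse above every normoxic one. The others at an unadjusted p under 0.05, named after their values were seen, were the fibrillin gene Fbn1 (difference 1.24), the thrombospondin gene Thbs1 (0.72), Emilin1 (0.69), whose product hinders processing of the precursor, and Furin (0.45), whose product cleaves it. The integrin genes Itgav, Itgb5, Itgb6 and Itgb8 differed by 0.24, 0.29, 0.32 and 0.13 and did not reach that p. They depended on single mice, as Itgb6 was at 0.19 and Itgb8 at -0.0061 without I, and Itgb5 at 0.44 without D.

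**Figure D3:**
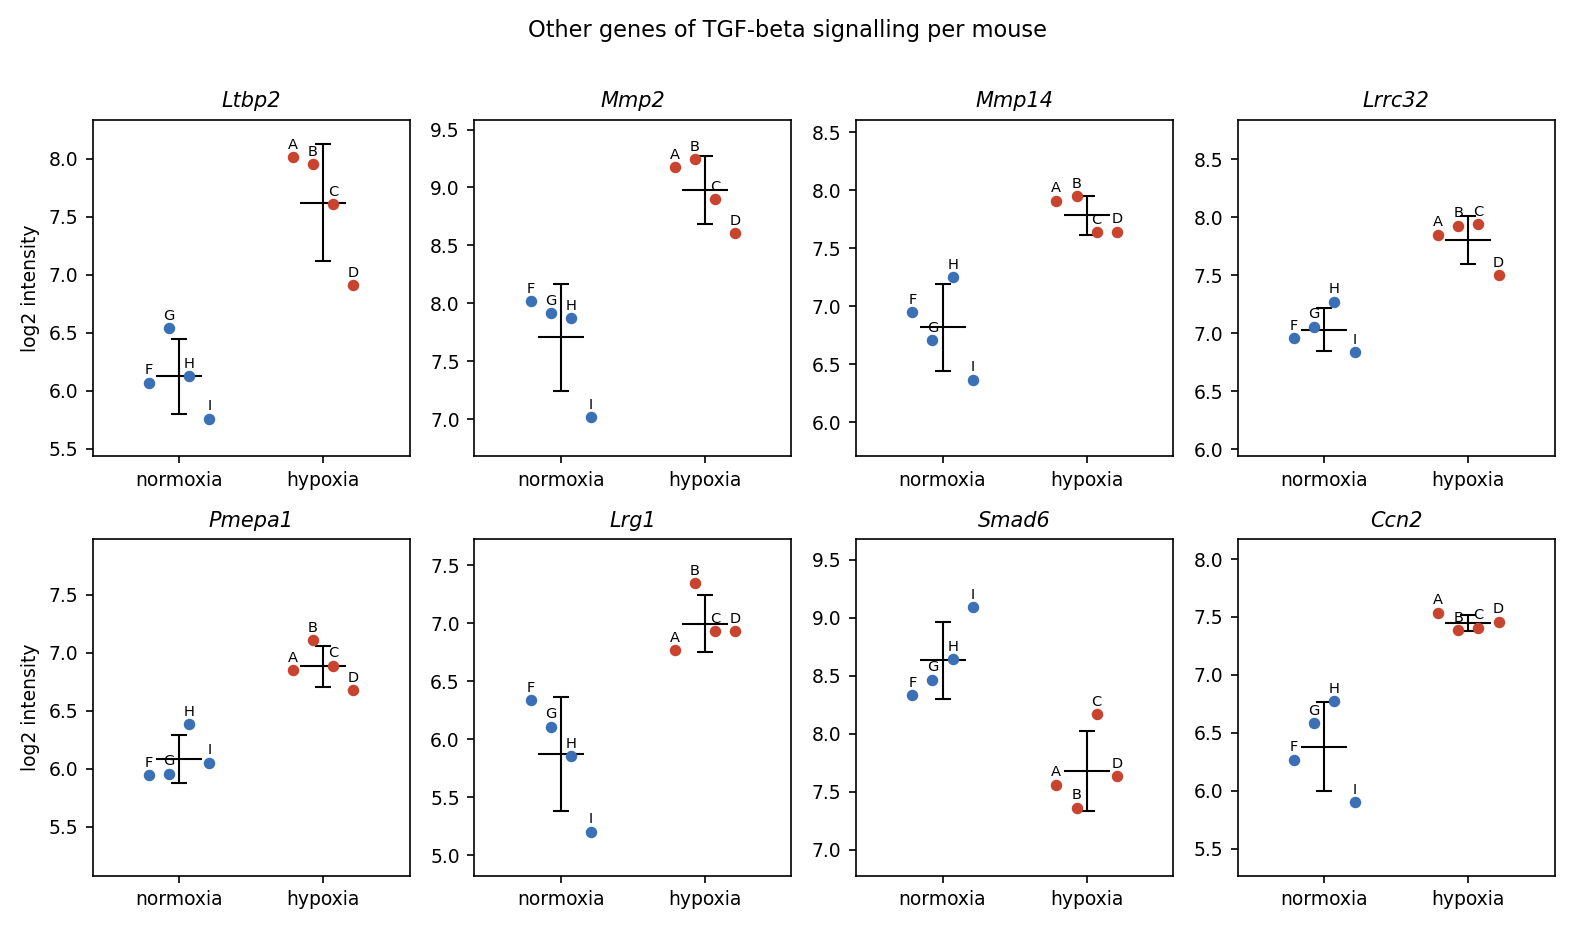
Log2 intensity of 8 further genes of TGF-beta signalling in each of the 8 mice (letters), normoxia in blue and hypoxia in red, with group means and SD (n = 4). The 8 genes were picked after their values were seen, from named genes whose groups do not overlap. For most of the 47 pathway genes the groups overlap. Hypoxic mice lie above normoxic ones for 7 genes and below them for Smad6.

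Among 14 co-receptors and receptor regulators, 6 had a higher and 8 a lower mean, 4 were higher at an unadjusted p under 0.05 and none was lower (5.34% and 3.15% of all probe sets), and the median was -0.10. Pmepa1, a target of the pathway whose product restrains SMAD2 and SMAD3 activation, read 5.95 to 6.38 in normoxia and 6.68 to 7.11 in hypoxia (difference 0.80, SE 0.16, limma adjusted p = 0.131). Lrg1, whose product binds endoglin and promotes vessel growth, read 5.20 to 6.34 and 6.77 to 7.35 (difference 1.12, SE 0.24, adjusted p = 0.151, and 1.47 without F and G). In both genes the groups were apart. Smurf1, a ubiquitin ligase gene for Smads and receptors, differed by 0.46 with overlapping groups. Cd109, a co-receptor gene of low signal, differed by 0.37, with groups barely apart (normoxia up to 3.36, hypoxia from 3.37). Of the 14, 3 were apart upwards and 0 downwards, against 3.01% and 1.61% of all probe sets. The lowest difference of the list, named after its value was seen, was -0.64 for Bambi (SE 0.30). Its groups overlapped, and it was -0.33 without mouse I. The endothelial receptor genes Eng and Acvrl1, named after their values were seen because they are the endothelial arm of the pathway, differed by -0.24 (SE 0.19) and -0.031 (SE 0.16). With 1 mouse left out, Eng ranged from -0.36 (without C) to -0.12 (without D) and Acvrl1 from -0.13 to 0.063, so that Acvrl1 had no settled direction.

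Of 15 other Smads and nuclear partners of Smads, 5 had a higher and 10 a lower mean, the median was -0.067, and 1 passed an unadjusted p under 0.05, where 3.15% of all probe sets were lower. This gene was Smad6, the inhibitory SMAD of the BMP branch, which is strong in endothelium. Smad6 read 8.33, 8.46, 8.64 and 9.09 in normoxia (F, G, H, I) and 7.56, 7.36, 8.17 and 7.63 in hypoxia (A, B, C, D). Every hypoxic mouse lay below every normoxic one, and the difference was -0.95 (SE 0.22, 95% interval -1.43 to -0.48, limma adjusted p = 0.167). The co-repressor gene Ski differed by 0.21 (SE 0.16) and the co-activator genes Crebbp and Ep300 by -0.31 (SE 0.25) and -0.24 (SE 0.20), all with overlapping groups. Crebbp and Ep300 were at -0.10 and -0.11 without mouse H, and at -0.67 and -0.44 without F and G, where Crebbp was among the 6 lower genes.

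Genes commonly induced by TGF-beta were also examined, though many of them respond to other signals too. This list, too, was written with earlier results of these data known, and its counts are a description only. Of 34, 27 had a higher mean in hypoxia, 18 were higher at an unadjusted p under 0.05, none was lower, and 13 were apart upwards and 0 downwards. The shares of all probe sets were 5.34%, 3.15%, 3.01% and 1.61%. The median difference was 0.50. Without F and G, 16 were higher and 2 lower at that p, again beside 7.32% and 5.76% of all probe sets. The list contains Acta2, Tagln, Cnn1, Col1a1 and Col1a2, which are also cell type markers used here. The elastin gene Eln read 7.49 to 7.96 in normoxia and 9.29 to 10.96 in hypoxia, a difference of 2.23 (SE 0.30, 4.70-fold, limma adjusted p = 0.0551). Tnc, which codes for the matrix glycoprotein tenascin C, differed by 1.94 (SE 0.33, 3.85-fold, adjusted p = 0.0751) and the protease inhibitor gene Timp1 by 1.16 (SE 0.23, adjusted p = 0.131). Both had low signal in normoxia, Tnc with 3.02 to 4.52 and Timp1 with 3.40 to 4.13, where array medians were 4.17 to 4.20. Ccn2, coding for connective tissue growth factor, read 6.27, 6.58, 6.77 and 5.90 in normoxia (F, G, H, I) and 7.54, 7.39, 7.41 and 7.46 in hypoxia (A, B, C, D). The 4 hypoxic mice were nearly level and all above the normoxic mice, and the Ccn2 difference was 1.07 (SE 0.19, 2.10-fold, limma adjusted p = 0.0918). Mouse I was the lowest normoxic mouse for 16 of the 34 genes.

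**Figure D4:**
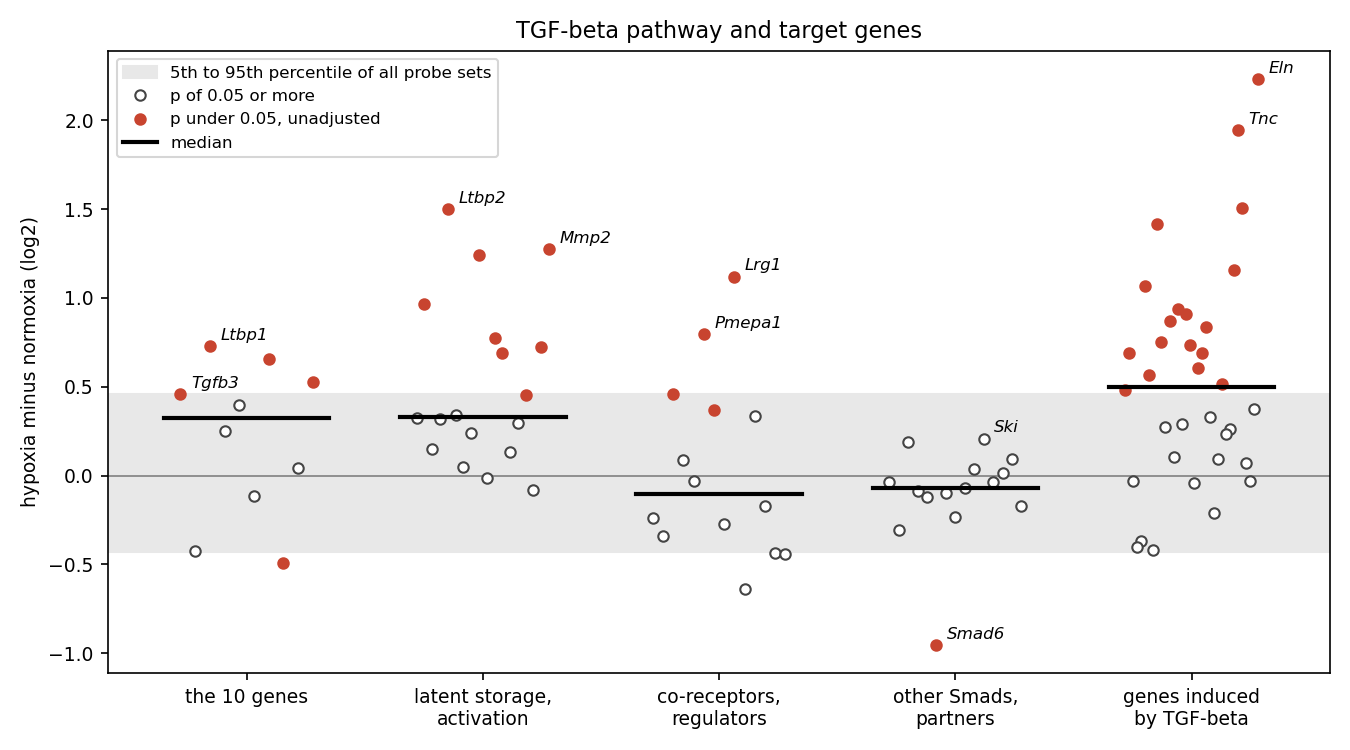
Difference between hypoxia and normoxia (log2, y axis) of each gene in the 10 genes and the 4 lists (x axis), filled red where the unadjusted limma p was under 0.05. Black bars are medians, and the grey band runs from the 5th to the 95th percentile of all probe sets, -0.43 to 0.46. The medians of the 10 genes, of storage and activation and of induced genes are 0.32, 0.33 and 0.50, and those of co-receptors and of other Smads lie below 0.

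**Figure D5:**
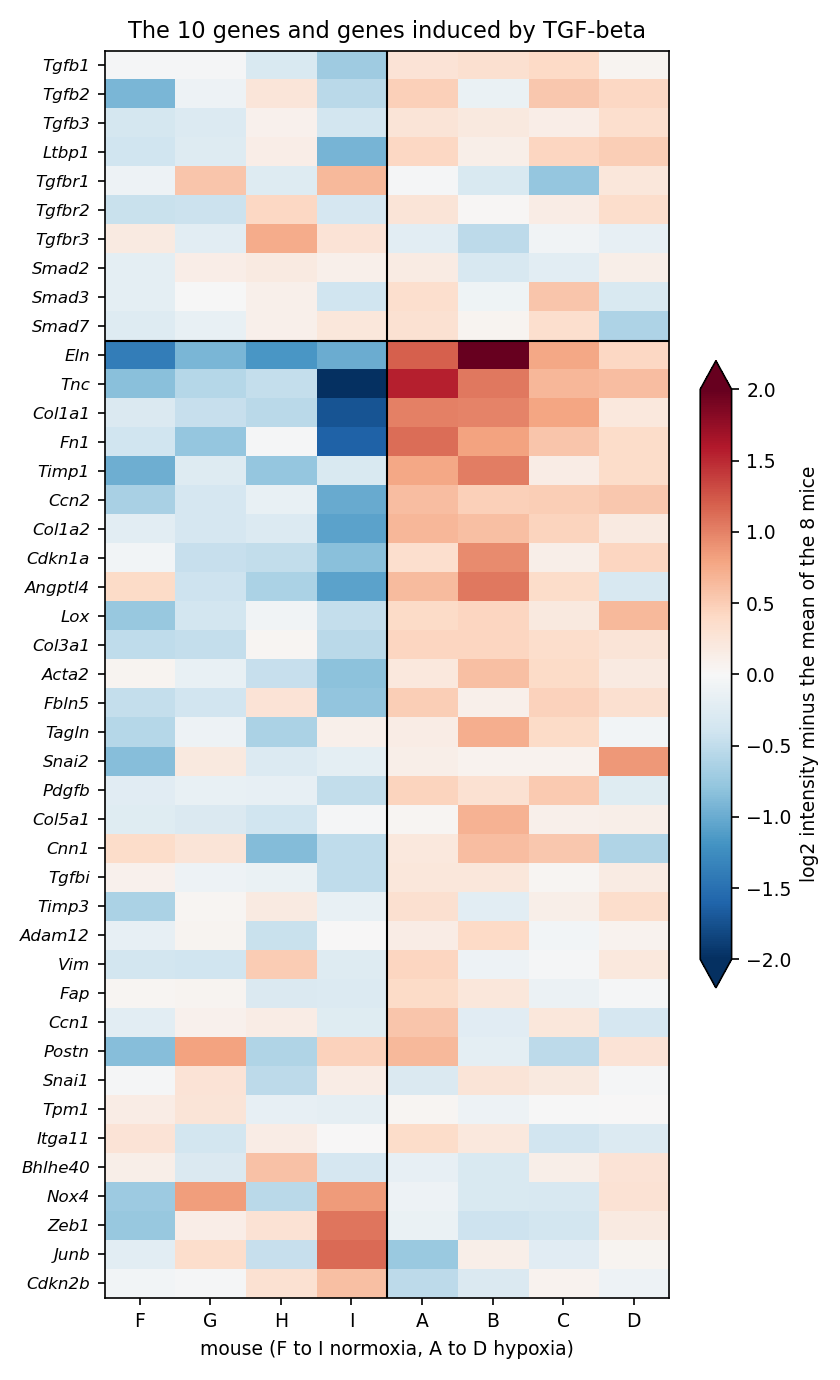
Heat map of log2 intensity minus the mean of the 8 mice, for the 10 genes above the horizontal line and genes induced by TGF-beta below it, sorted by difference, with 1 of the list not drawn. Columns are mice, normoxia left of the vertical line, and colours saturate at 2 log2 units in either direction. The 4 hypoxic columns are red for most induced genes, and over the whole list 27 of 34 means were higher in hypoxia.

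Markers of the cells that make or answer TGF-beta moved to different extents. The mean level of 8 smooth muscle markers ranged from 6.50 to 7.06 in normoxia and from 6.88 to 7.35 in hypoxia, with 3 of 8 higher at an unadjusted p under 0.05. Of all probe sets, 5.34% were higher and 3.15% lower at that p. The 3 smooth muscle markers were Acta2 (difference 0.69), Tagln (0.61) and Smtn (0.79), and Myh11 (-0.10) was the 1 of 8 with a lower mean. The 6 pericyte markers ranged from 5.80 to 6.47 and from 6.12 to 6.98, with 4 of 6 higher at that p. The pericyte marker Rgs5 had a lower mean (difference -0.51). The 8 fibroblast markers ranged from 7.35 to 7.79 and from 7.51 to 7.94, with 2 higher (Col1a1, 1.51, and Col1a2, 0.94) and 1 lower (Dcn, -1.01). The 6 macrophage markers ranged from 6.13 to 6.34 and from 6.17 to 6.69, with C1qa (0.67) and Cd68 (0.40) higher at that p. Of these 6 markers, 3 had a higher and 3 a lower mean, and the median difference was 0.034. The macrophage level of 6.69 was that of mouse D, while A, B and C were at 6.17 to 6.37. The 8 endothelial markers ranged from 9.10 to 9.39 and from 8.94 to 9.38, with Vwf (0.65) higher and Plvap (-0.95) lower. Platelets, which carry much TGF-beta1 protein, had 5 markers with mean levels of 5.46 to 5.89 in normoxia and 4.87 to 5.20 in hypoxia. Of the 5, Ppbp (difference -1.52) and Gp9 (-0.97) were lower at an unadjusted p under 0.05 with groups that did not overlap, whereas Pf4 (-0.27), Itga2b (-0.14) and Gp1bb (-0.15) overlapped. The part of these cell types in the differences of the 10 genes was not tested.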

How the data were processed

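RNA of 1 lung lobe from each of 8 mice was measured on Mouse Gene 2.0 ST arrays (Affymetrix). The deposited values are log2 intensities. According to the methods, the authors used a custom chip definition (version 22) based on Entrez genes and normalized by quantiles. RMA is named in the submitters' processing notes. Not given in the sources used here are the background correction and the arrays normalized together. The array of mouse F has finer decimal steps than the rest, with 2.14% of its values on their common step, and was not altered.

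Of 25428 probe sets, 24705 took a symbol from the array annotation, 564 from RefSeq by Entrez ID, and 159 had none. Hypoxia was compared with normoxia with limma 3.58.1 (R 4.3.3) on all probe sets, p-values were adjusted by the Benjamini-Hochberg method, and the threshold was 0.05. Two-sided exact permutation tests over 70 assignments were added for single genes. The script was tested on simulated data. The 10 genes and all lists were chosen with earlier results of these data known. Named were the 10 genes, Nfat5, the 4 genes of each list with the smallest p, and the 3 closest correlates of each ligand. For cell type markers, the mean log2 level of each list was taken per mouse. The 16 alternatives covered normalization, low intensity, the test (including the one-way ANOVA of the methods), array weights, probe sets with a symbol and omitted mice. Promoters are from RefSeq (GRCm38.p6). Precision is limited by the number of mice (4 in each group), among other things, and an array has no read depth to report. Arrays of knockout lungs were not analysed here. The list of induced genes holds 1 gene that is counted but not reported here by itself.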

Additional observations from a re-analysis of the deposited data

Results flagged for a closer look

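Among 54 groups of 4 mice (27 named genes in 2 conditions), 3 held a mouse far from the other 3 by Dixon's test, and chance gives about 1 in 20. For Tgfbr2, the normoxic mouse H read 8.76, while F, G and I read 7.91 to 8.02. For Mmp2, the normoxic mouse I read 7.02, while the other normoxic mice read 7.87 to 8.02. For Nfat5, the hypoxic mouse D read 6.96, while A, B and C read 6.18 to 6.30. The gap to the nearest other mouse took 0.869, 0.850 and 0.848 of the range of the group.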

How the results depend on the processing

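The 10 genes stayed above an adjusted p of 0.05 under all 16 alternatives. Their differences kept their direction except for Smad7, which ranged from -0.067 to 0.25 with 1 mouse left out (-0.037 without F, -0.0043 without G and -0.052 without A) and was -0.14 without mice F and G, an alternative chosen after seeing the data. Genes higher at an unadjusted p under 0.05 numbered 2 without F and G and 3 to 5 with 1 mouse left out, against 4, and genes lower at that p numbered 0 by the one-way ANOVA of the methods, 2 with array weights and 0 to 1 with 1 mouse left out (0 without I, A or B, and Tgfbr1 in place of Tgfbr3 without H), against 1. Over all settings 3.37% to 7.32% of the probe sets tested were higher at that p and 1.88% to 5.76% lower. Genes whose groups did not overlap numbered 2 to 4 with 1 mouse left out, with 4 without H and 4 without B. Of all probe sets, 3.25% to 6.98% were then apart upwards and 2.02% to 3.94% downwards. These shares were 6.05% and 3.83% without H, and 3.25% and 2.02% without B. Of the 47 pathway genes, those lower numbered 2 after a second quantile normalization, 2 with an intensity trend, 2 with array weights, 6 without F and G and 1 to 4 with 1 mouse left out (4 without F). Of the 34 induced genes, those lower numbered 1 after quantile normalization, 2 without F and G and 0 to 2 with 1 mouse left out (2 without F), and their median ranged from 0.44 to 0.58. The causes were not tested. Without probe sets of low intensity, which leaves 12714 to adjust over, 53 probe sets passed. Among them were Eln (adjusted p = 0.0187), Tnc (0.0318), Ltbp2 (0.0334), Mmp2 (0.0453) and Ccn2 (0.0453), all by limma. Cd109 was left out as too dim. The intensity cut-off was 4.18. Tnc averaged 4.03 in normoxia, below the cut-off, and 5.98 in hypoxia, so it was kept only because of its hypoxic values. The normoxic means of Eln, Ltbp2, Mmp2 and Ccn2, at 6.12 to 7.76, lay above the cut-off. Eln also passed with an intensity trend (0.0323), with array weights (0.0399, and Tnc 0.042), without G (0.0494) and without C (0.0332). No paired analysis was possible because the letters of the mice are not shared between the groups.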

Other observations

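The spread between mice was often smaller in hypoxia than in normoxia. The SD of the hypoxic mice was the smaller for 7 of the 10 genes, for 30 of the 47 other pathway genes and for 26 of the 34 induced genes, against 59.2% of all 25428 probe sets. Ccn2 had an SD of 0.38 in normoxia and 0.066 in hypoxia, and Tgfb3 one of 0.21 and 0.083, whereas Smad7 went the other way with 0.22 and 0.44. The difference in spread was not tested.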
